A study of Rattus norvegicus with 9 samples.

Results

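The tubulin isotypes described here are 10 genes, 5 alpha (Tuba1a, Tuba1b, Tuba1c, Tuba4a, Tuba8) and 5 beta (Tubb2a, Tubb2b, Tubb4b, Tubb5, Tubb6), taken by symbol from a deposited table of 18629 rat genes. Each symbol had a single line, and all 10 passed the filter on low counts that left 13708 genes for testing. Messenger RNA was measured in primary cultures labelled as neonatal rat cardiomyocytes (NRCMs), from hearts of SD rat pups at 1–2 days of age. As a diabetic model in the dish, the medium held 33 mM glucose and 100 nM insulin over the last 48 h. There were 3 groups of 3 libraries, each infected with an adenovirus: Ad-GFP as the control, Ad-Yap1 WT, which carries the transcriptional co-activator YAP, and Ad-Yap1 shRNA, a hairpin against it. Below, the virus groups are Yap1 WT and Yap1 shRNA, although the GFP cells were infected too. The high glucose and insulin were common to all 9 libraries, the labels name no control hairpin virus, and GFP cells without the treatment were not analysed here. The labels do not say that the 3 libraries of a group came from separate cell isolations, so p-values measure the spread between these libraries, which may be technical.

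Microtubules are polymers of alpha- and beta-tubulin dimers, and each partner of the dimer is encoded by several genes whose products differ mostly in their acidic tails, where enzymes add and remove tyrosine and glutamate. In cardiomyocytes a dense, long-lived and detyrosinated microtubule network resists contraction and carries mRNA and organelles, and its growth is a known feature of hypertrophied hearts. Newly made tubulin is folded by the CCT chaperonin and a chain of cofactors, and cells also adjust the stability of tubulin mRNA to the amount of free dimer.

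Total counts were 14868174 to 15368465 for GFP libraries, 10960046 to 11497108 for Yap1 WT and 6103220 to 6357398 for Yap1 shRNA, so depth differed between the groups as well as the virus. Yap1 itself, at 195 ± 4.36 CPM in GFP (SD, n = 3; CPM are counts scaled to library size, here with the TMM correction for composition), stood at 664 ± 132 with Ad-Yap1 WT and at 95.6 ± 0.36 with the hairpin (log2 changes 1.77 and -1.03, edgeR adjusted p = 1.63e-08 and 1.93e-06). In TPM its means were 54.1, 415 and 31.3, 7.67 times GFP with Ad-Yap1 WT against a fitted 3.41 in counts; the species and extent of the Yap1 sequence in that virus are not given in the sources used here. The library of Yap1 WT replicate 2 had the highest Yap1, 812 CPM against 559 and 622. The cardiomyocyte markers (10 of 10 tested) all fell in both virus groups, with summed CPM of 30749 to 31646 (GFP), 6266 to 9373 (Yap1 WT) and 1974 to 2218 (Yap1 shRNA). Over all tested genes 31.8% were called lower and 32% higher in Yap1 WT, and 39.1% and 39.2% in Yap1 shRNA, which is the background for each marker count here. Of 10 fibroblast markers, 3 rose and 6 fell in Yap1 WT (summed CPM 18949 to 20183 for GFP, 12612 to 17039 for Yap1 WT) and 1 rose and 9 fell in Yap1 shRNA (7881 to 8623). Proliferation markers fell in 7 of 8 and 8 of 8 cases (411 to 435, 263 to 340 and 180 to 197 summed CPM). Of 8 tested smooth muscle and pericyte markers, 1 rose and 6 fell in Yap1 WT and 1 rose and 7 fell in Yap1 shRNA (8786 to 9273, 3780 to 5161 and 3425 to 3835 summed CPM). Endothelial markers rose in 4 of 8 cases and fell in 1 in Yap1 WT, and in 7 and 1 in Yap1 shRNA (46.1 to 47.2, 61.0 to 66.7 and 71.8 to 76.1). Macrophage markers gave 2 higher and 1 lower of 8, then 1 higher and 5 lower (42.4 to 47.0, 57.1 to 59.9 and 27.8 to 38.0), and no marker of any list was at 0 in all libraries. Whether these shifts have a part in the tubulin values below was not tested, and in bulk RNA fewer cells of a type and less RNA per cell cannot be told apart.

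In GFP cells the tubulin mRNA pool was led by 3 genes. On the deposited TPM scale (transcript abundance corrected for length and library size, used for all comparisons between genes here), Tuba1b, the widely expressed alpha isotype, had 1654 ± 41.5 TPM (SD, n = 3), Tuba1a, the main alpha isotype of developing neurons, 1260 ± 27.1, and Tubb5, the near-ubiquitous beta isotype, 871 ± 24.4. They were followed by Tubb4b at 499 TPM, Tuba1c at 303, Tuba4a at 241, Tubb6 at 186, Tubb2a at 156 and Tubb2b at 29.9, with Tuba8 last at 1.06. No neighbours in this order overlapped between the 3 GFP libraries. In Yap1 WT cells the order kept Tuba1b first (1734 TPM), Tuba1a (975) and Tubb5 (946) overlapped, and Tubb6 (372) stood above Tuba4a (277). In Yap1 shRNA cells Tuba1b (1273) stayed first but the next 5 genes lay close together: Tubb5 at 766 TPM, Tuba1c at 761, Tuba1a at 703, Tubb6 at 688 and Tubb4b at 682. Of these, Tubb5 overlapped with Tuba1c, Tuba1a with Tubb6 and Tubb4b, and Tubb6 with Tubb4b.

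**Figure D1:**
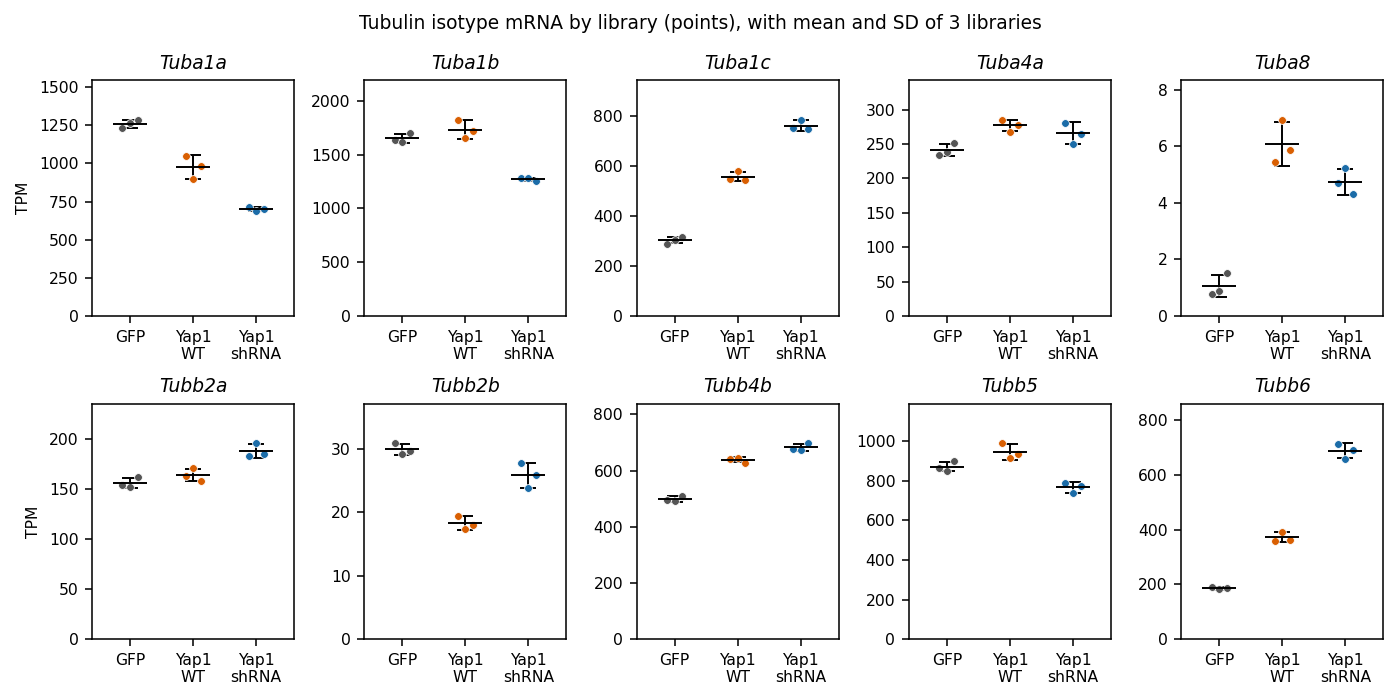
TPM (vertical axes, each from 0) of the 10 tubulin isotypes in the GFP, Yap1 WT and Yap1 shRNA groups; points are libraries, and the bar and whiskers are the mean and SD of 3 libraries. Tubb6 and Tuba1c step up from GFP through Yap1 WT to Yap1 shRNA while Tuba1a steps down, and Tubb2b is lowest in Yap1 WT.

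The isotypes moved in opposite directions. In Yap1 WT against GFP, 4 of 10 rose (Tuba1c, Tuba8, Tubb4b, Tubb6), 2 fell (Tuba1a, Tubb2b) and 4 were not called (Tuba1b, Tuba4a, Tubb2a, Tubb5) by edgeR's quasi-likelihood test with Benjamini-Hochberg adjustment over all 13708 genes at 0.05. In the same comparison 63.8% of all tested genes were called, 32% higher and 31.8% lower, so the isotypes' 6 of 10 calls lie near the background. In Yap1 shRNA against GFP the 4 genes named as rising above rose, and 4 fell (Tuba1a, Tuba1b, Tubb2b, Tubb5), beside a background of 78.3% called, 39.2% higher and 39.1% lower. Both comparisons use the same GFP libraries. Directly between Yap1 WT and Yap1 shRNA, 3 were higher in Yap1 WT (Tuba1a, Tuba1b, Tubb5) and 4 lower (Tuba1c, Tubb2a, Tubb2b, Tubb6), where 62.5% of all genes were called, 31.2% higher and 31.3% lower. The median log2 fold change of the 10 was 0.00, -0.01 and 0.03 in the 3 comparisons, against 0.00, -0.01 and 0.04 over all genes tested. At least 2-fold change was seen for 1, 4 and 0 isotypes, against 17.2%, 36.3% and 15.0% of all genes.

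**Figure D2:**
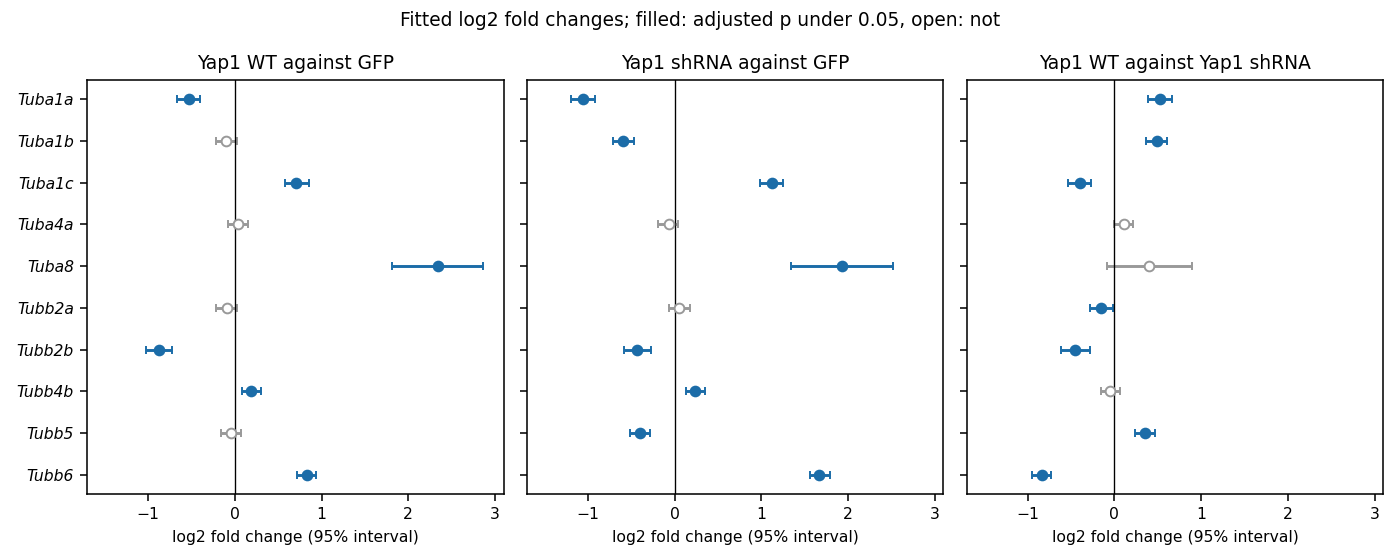
Fitted log2 fold changes (horizontal axis) of the 10 isotypes with 95% intervals in the 3 comparisons, filled where the adjusted p was under 0.05. Tuba8 and Tubb6 lie furthest to the right in both comparisons with GFP, and Tuba1a and Tubb2b lie left of 0 in both.

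The 3 alpha genes Tuba1a, Tuba1b and Tuba1c lie in a cluster on rat chromosome 7 (build rn6, as in the deposited table: 140637287 to 140640953 for Tuba1a, 140601074 to 140624814 for Tuba1b and 140716113 to 140723717 for Tuba1c), and they did not move together. Tuba1a measured 1349, 1439 and 1445 CPM in the GFP libraries, 1038, 892 and 993 in Yap1 WT and 663, 686 and 688 in Yap1 shRNA. The groups did not overlap, with GFP highest and Yap1 shRNA lowest. Tuba1a fell by 0.53 ± 0.06 on the log2 scale (SE) in Yap1 WT (edgeR adjusted p = 6.82e-06) and by 1.06 ± 0.06 in Yap1 shRNA (edgeR adjusted p = 4.4e-09), and was higher in Yap1 WT than in Yap1 shRNA by 0.52 (edgeR adjusted p = 1.04e-05). Its neighbour Tuba1c, a widely expressed alpha isotype whose protein is close to that of Tuba1b, ran the other way, with 298, 324 and 334 CPM in GFP, 510, 543 and 516 in Yap1 WT and 654, 733 and 687 in Yap1 shRNA. Again no groups overlapped, here with GFP lowest. The rise was 0.71 ± 0.06 (log2, SE) in Yap1 WT and 1.12 ± 0.06 in Yap1 shRNA (edgeR adjusted p = 4.36e-07 and 2.13e-09). In TPM that was 303 ± 13.3 in GFP, 557 ± 19.5 in Yap1 WT and 761 ± 21.4 in Yap1 shRNA, 2.51 times the GFP mean in the last.

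Because these neighbours parted, the 250 bases before their annotated start sites are shown (GRCr8 assembly, RefSeq), with Tuba1a at chr7:131995820-131996069 on the minus strand and Tuba1c at chr7:132070734-132070983 on the plus strand, printed 5′ to 3′ along the gene. Capitals mark the CCAAT box (CCAAT, in either orientation) and, in Tuba1c, a match to a heat shock element core (GAANNTTC). The genes to print were chosen after their values were seen. The deposited table lists Tuba1a and Tuba1b on the plus strand of rn6, while the RefSeq table has them on the minus strand of GRCr8.
Tuba1a: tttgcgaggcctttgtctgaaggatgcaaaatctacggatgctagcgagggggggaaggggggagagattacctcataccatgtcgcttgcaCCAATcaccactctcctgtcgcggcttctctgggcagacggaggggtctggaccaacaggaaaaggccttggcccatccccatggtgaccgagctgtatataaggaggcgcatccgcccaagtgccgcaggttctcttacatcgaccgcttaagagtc
Tuba1c: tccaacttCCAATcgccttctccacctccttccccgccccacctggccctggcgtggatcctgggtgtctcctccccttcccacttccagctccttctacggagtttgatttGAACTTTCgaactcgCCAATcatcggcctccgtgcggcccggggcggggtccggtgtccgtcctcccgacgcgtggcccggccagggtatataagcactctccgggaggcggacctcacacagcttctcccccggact

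Both windows hold the CCAAT box, which ends 154 bases before the start in Tuba1a and 238 and 119 bases before it in Tuba1c. The heat shock element match in Tuba1c covers bases 138 to 131 before the start. It was the only such match among the 10 isotypes, and 7.2% of 33469 RefSeq windows of this length have one. These are matches of letters and were not tested as sites.

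Tuba1b, the isotype of highest TPM in every group, fell with the hairpin and was not called with Yap1 WT. Its libraries measured 1794, 1839 and 1908 CPM in GFP, 1803, 1641 and 1741 in Yap1 WT and 1189, 1267 and 1229 in Yap1 shRNA. GFP and Yap1 WT overlapped, and the 3 Yap1 shRNA libraries were the lowest. The difference of Yap1 WT from GFP was -0.10 (log2, 95% interval -0.22 to 0.02, edgeR adjusted p = 0.145), while in Yap1 shRNA Tuba1b fell by 0.59 ± 0.06 (SE, edgeR adjusted p = 4.53e-07). It was higher in Yap1 WT than in Yap1 shRNA by 0.49 (edgeR adjusted p = 6.1e-06). Without Yap1 WT replicate 1 the call changed, with Tuba1b lower in Yap1 WT by a log2 change of -0.15 (edgeR adjusted p = 0.0354).

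The estimated counts of Tuba1a, Tuba1b and Tuba1c were not whole numbers in 9 of 9 libraries, and neither were those of Tubb2a and Tubb2b. This marks reads divided between similar genes. Which genes those were is not given, so the split within each of these sets is taken as uncertain. The other 5 isotypes had whole counts throughout, judged on the deposited values as written, with no tolerance. Summed over the 3 genes, the Tuba1a, Tuba1b and Tuba1c level was 3216 ± 74.1 TPM in GFP, 3267 ± 150 in Yap1 WT and 2737 ± 26.9 in Yap1 shRNA (SD, n = 3). The GFP and Yap1 WT sums overlapped on this scale, and the Yap1 shRNA sums were lower. On the CPM scale the sums were 3577, 3225 and 2599, with no overlap.

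Tuba4a, an alpha isotype whose gene encodes no terminal tyrosine, was called in no comparison. Its libraries gave 224, 238 and 248 CPM in GFP, 247, 234 and 246 in Yap1 WT and 229, 218 and 228 in Yap1 shRNA. Both virus groups overlapped with GFP. The log2 differences from GFP were 0.04 (95% interval -0.08 to 0.15, edgeR adjusted p = 0.57) in Yap1 WT and -0.07 (-0.19 to 0.04, edgeR adjusted p = 0.239) in Yap1 shRNA. Between the virus groups Tuba4a differed by 0.11 (-0.01 to 0.22, edgeR adjusted p = 0.101), and without Yap1 WT replicate 2 by 0.14, which was called (edgeR adjusted p = 0.0496), as were 0.24 with upper quartile and 0.22 with library size scaling (edgeR adjusted p = 0.0012 and 0.00245). In TPM, which has no TMM scaling, the means were 241, 277 and 266, and Yap1 WT did not overlap with GFP.

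Tuba8, a divergent alpha isotype known from heart, skeletal muscle and testis, was scarce. It had 11, 13 and 22 counts in the GFP libraries (0.763, 0.88 and 1.49 CPM), 57, 71 and 61 in Yap1 WT (4.72, 6.07 and 5.21 CPM) and 24, 27 and 23 in Yap1 shRNA (3.84, 4.55 and 3.7 CPM). All libraries of both virus groups lay above all GFP libraries. Tuba8 rose by 2.34 ± 0.24 (log2, SE) in Yap1 WT and 1.93 ± 0.27 in Yap1 shRNA (edgeR adjusted p = 2.44e-06 and 2.11e-05). These were the largest log2 changes in both comparisons among the isotypes of the set described here, which leaves out Tubb3. The virus groups differed by 0.40 (95% interval -0.09 to 0.89, edgeR adjusted p = 0.137), and by 0.54 with upper quartile scaling, which was called (edgeR adjusted p = 0.0493). With all libraries thinned to the smallest total, the rise in Yap1 WT was 1.71 (edgeR adjusted p = 0.00028). Even at its highest mean, 6.09 TPM in Yap1 WT, Tuba8 made up 0.172% of alpha-tubulin TPM.

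Among the beta isotypes of the set described here, which leaves out Tubb3 and Tubb4a, the broadly expressed and divergent isotype Tubb6 rose most. It measured 229, 227 and 231 CPM in GFP, 390, 431 and 403 in Yap1 WT and 728, 719 and 745 in Yap1 shRNA. The libraries formed 3 separate steps. The rise over GFP was 0.83 ± 0.05 (log2, SE) in Yap1 WT and 1.67 ± 0.05 in Yap1 shRNA (edgeR adjusted p = 2.33e-08 and 2.58e-11), and Yap1 WT was below Yap1 shRNA by a log2 difference of -0.84 (edgeR adjusted p = 2.89e-08). Tubb6 lies on chromosome 18 of rn6, from 63130542 to 63140181, away from the other members.

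Tubb4b, a widely expressed beta isotype also found in cilia, rose in both virus groups by less than the others that rose. Its libraries had 526, 539 and 557 CPM in GFP, 614, 623 and 615 in Yap1 WT and 607, 647 and 662 in Yap1 shRNA. Every Yap1 WT and Yap1 shRNA library exceeded every GFP library, and the virus groups overlapped. Tubb4b rose by 0.19 ± 0.05 (log2, SE) in Yap1 WT and 0.24 ± 0.05 in Yap1 shRNA (edgeR adjusted p = 0.00537 and 0.000839). The virus groups differed by -0.05 (95% interval -0.16 to 0.06, edgeR adjusted p = 0.434). With upper quartile scaling the shRNA value was 0.10 and was not called (edgeR adjusted p = 0.0978).

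The windows before Tubb6 and Tubb4b are shown because these genes rose in both virus groups, the first by far more (chr18:63213037-63213286 on the plus strand and chr3:28438456-28438705 on the minus strand, GRCr8, RefSeq). Capitals mark the CCAAT box, read as ATTGG where it lies on the opposite strand, and in Tubb4b also a TATA box (TATAAA).
Tubb6: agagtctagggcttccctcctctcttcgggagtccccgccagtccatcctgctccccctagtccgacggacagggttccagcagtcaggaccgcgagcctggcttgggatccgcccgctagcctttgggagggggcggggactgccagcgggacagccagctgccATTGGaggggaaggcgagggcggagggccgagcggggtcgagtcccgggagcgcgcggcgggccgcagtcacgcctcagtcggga
Tubb4b: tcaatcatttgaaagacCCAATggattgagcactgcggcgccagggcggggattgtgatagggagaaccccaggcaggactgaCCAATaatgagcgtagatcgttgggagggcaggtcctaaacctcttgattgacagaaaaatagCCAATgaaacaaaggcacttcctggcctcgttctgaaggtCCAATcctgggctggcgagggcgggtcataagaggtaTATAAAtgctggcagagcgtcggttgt

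Tubb4b has 4 CCAAT boxes in its window and Tubb6 has 1. Over the isotypes, 7 of 10 windows held CCAAT on either strand (Tuba1a, Tuba1b, Tuba1c, Tubb2b, Tubb4b, Tubb5 and Tubb6), against 34.0% of all 33469 windows, and the 7 include genes that rose and genes that fell. TATAAA was found in 2 windows (Tubb2a and Tubb4b, 12.9% of all). Only these exact letters were counted, not variants such as tatataa, which is in the Tuba1a and Tuba1c windows. The core letters of the TEAD element (GGAATG), through which YAP is known to act, were in 0 of 10 isotype windows and 12.1% of all, which says only that these letters are not in these 250 bases. The CArG box by name (1.5% of all) and an interferon response core (3.4%), were in none of the 10. All motifs were searched on both strands.

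Tubb5 showed the same contrast between the virus groups as Tuba1b. It measured 1370, 1398 and 1458 CPM in GFP, 1416, 1314 and 1370 in Yap1 WT and 1055, 1058 and 1094 in Yap1 shRNA. Only the Yap1 shRNA libraries stood apart, below the other 6. Tubb5 fell by 0.40 ± 0.05 (log2, SE) in Yap1 shRNA (edgeR adjusted p = 1.15e-05), and its difference in Yap1 WT was -0.04 (95% interval -0.16 to 0.07, edgeR adjusted p = 0.478). It was higher in Yap1 WT than in Yap1 shRNA by 0.35 (edgeR adjusted p = 6.62e-05).

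The neighbours Tubb2a and Tubb2b on chromosome 17 (rn6, 31493145 to 31496827 and 31441640 to 31444687), beta isotypes best known from neurons, also parted. Tubb2b had 35.5, 35.0 and 35.1 CPM in GFP, 20.2, 18.2 and 19.1 in Yap1 WT and 27.2, 24.8 and 26.6 in Yap1 shRNA. It is the only member lowest in Yap1 WT with no overlap between any groups. Tubb2b fell by 0.88 ± 0.07 (log2, SE) in Yap1 WT and by 0.43 ± 0.07 in Yap1 shRNA (edgeR adjusted p = 2.05e-07 and 0.000116), and Yap1 WT was below Yap1 shRNA by a log2 difference of -0.45 (edgeR adjusted p = 0.000232). Tubb2a, at 144, 147 and 155 CPM in GFP, had 137, 145 and 136 in Yap1 WT and 144, 165 and 154 in Yap1 shRNA, all overlapping with GFP. Its log2 differences from GFP were -0.09 (95% interval -0.22 to 0.03, edgeR adjusted p = 0.171) and 0.05 (-0.07 to 0.18, edgeR adjusted p = 0.415). Between the virus groups Tubb2a passed narrowly (-0.15, edgeR adjusted p = 0.0457) although their libraries overlapped, and the call was lost without any 1 of 7 of the 9 libraries (edgeR adjusted p 0.0625 to 0.213) in DESeq2 (adjusted p = 0.071), and with upper quartile or library size scaling, no count filter, thinning or the 6 libraries alone. In the authors' deposited table its q-value for this comparison was 0.148, and the other 29 of the 30 isotype calls were the same there. As reads may be divided between Tubb2a and Tubb2b, their sum is given too: 186 ± 5.46 TPM in GFP, 182 ± 5.89 in Yap1 WT and 214 ± 4.96 in Yap1 shRNA (SD, n = 3). In CPM the sum was 184 ± 5.77, 158 ± 3.91 and 181 ± 9.32, so that Yap1 WT was the group apart from GFP in CPM and Yap1 shRNA the group apart in TPM.

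Summing the 10 isotypes shows how their pool was made up. The sums, shares and ratios leave out Tubb3, with mean 26.6, 45.0 and 130 TPM in GFP, Yap1 WT and Yap1 shRNA. They also leave out Tubb4a, with 0.987, 1.01 and 2.97 TPM. Summed alpha-tubulin was 3395, 3427 and 3552 TPM in GFP, 3715, 3401 and 3533 in Yap1 WT and 3036, 3010 and 2975 in Yap1 shRNA. Summed beta-tubulin was 1736, 1702 and 1788 TPM in GFP, 2173, 2140 and 2103 in Yap1 WT and 2387, 2287 and 2373 in Yap1 shRNA. Alpha overlapped between GFP and Yap1 WT and was lower in Yap1 shRNA, whereas beta was higher in each step with no overlap. In CPM, mean summed alpha was 3814, 3473 and 2828 in GFP, Yap1 WT and Yap1 shRNA, with no overlap. Summed beta was 2362, 2550 and 2618, with the virus groups overlapping and both above GFP. Lower alpha in Yap1 shRNA and higher beta in both virus groups than in GFP were thus seen on both scales. The alpha overlap of GFP with Yap1 WT and the beta step between the virus groups held in TPM only. The ratio of alpha to beta was 1.99 ± 0.0289 in GFP, 1.66 ± 0.0627 in Yap1 WT and 1.28 ± 0.0323 in Yap1 shRNA (SD, n = 3), and 1.61, 1.36 and 1.08 on the CPM scale, which is not corrected for length. All 10 isotypes together came to 5200 ± 121, 5688 ± 179 and 5356 ± 63.5 TPM, 1.09 and 1.03 times GFP, but to 0.975 and 0.882 times GFP in CPM, so the direction of the total depends on the scale. No test was made on these sums.

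Within alpha-tubulin, Tuba1a supplied 36.4% ± 0.408 of the TPM in GFP, 27.4% ± 0.999 in Yap1 WT and 23.4% ± 0.361 in Yap1 shRNA, and Tuba1c 8.75% ± 0.201, 15.7% ± 1.17 and 25.3% ± 0.713 (SD, n = 3). Tuba1b supplied 47.8%, 48.8% and 42.3%. Within beta-tubulin, Tubb5 supplied 50.0% in GFP, 44.2% in Yap1 WT and 32.6% in Yap1 shRNA, Tubb6 10.7%, 17.4% and 29.3%, and Tubb4b 28.6%, 29.9% and 29.0%. Of these shares, only those of Tubb4b overlapped between groups, GFP with Yap1 shRNA.

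**Figure D3:**
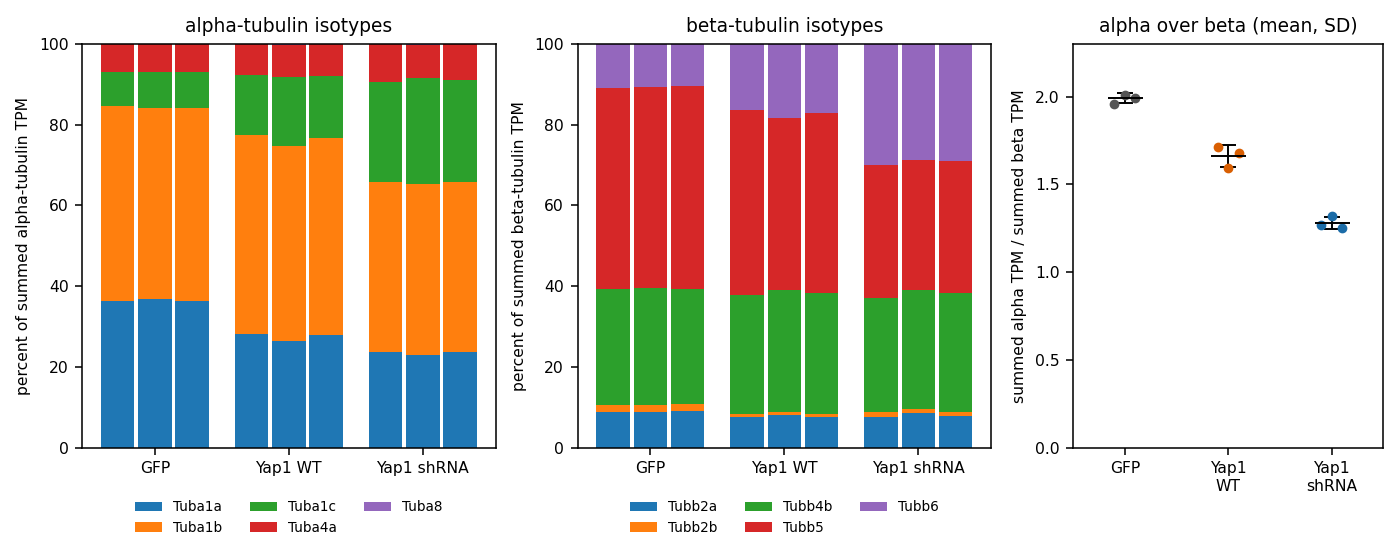
Share of each isotype in the summed alpha (left) and beta (middle) TPM of each library (bars, 3 per group), and the ratio of summed alpha to summed beta TPM (right; points are libraries, bars the mean and SD). Tuba1c and Tubb6 take larger shares from GFP to Yap1 WT to Yap1 shRNA, and the ratio goes from 1.99 to 1.66 to 1.28; Tuba8, at most 0.172% on average, is too small to be seen.

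Directions were checked under other scalings of the libraries. Scaling by library size alone moved the median of all genes in Yap1 WT against GFP from 0.00 to 0.14 and the share of calls that were higher from 50.2% to 62.8%, and log2(TPM + 1) gave 0.14 and 65.0%. In Yap1 shRNA against GFP the median was 0.16 on log2(TPM + 1) and -0.15 with upper quartile scaling, and the share of higher calls went from 50.0% to 61.2% on that TPM scale with no filter. Between the virus groups upper quartile scaling moved the median from 0.04 to 0.18 and the higher share from 49.9% to 61.6%. The directions that flipped under these scalings were those of values near 0: Tuba1b, Tubb2a and Tubb5 in Yap1 WT against GFP, Tuba4a and Tubb2a in Yap1 shRNA against GFP, and Tubb4b between the virus groups. Each gene called in a comparison with TMM scaling kept its direction there in all of them. On log2(TPM + 1) some isotypes gained a call: Tuba4a (0.20, limma adjusted p = 0.00733) and Tubb5 (0.12, limma adjusted p = 0.047) in Yap1 WT, and Tuba4a (0.14, limma adjusted p = 0.0329) and Tubb2a (0.26, limma adjusted p = 0.00052) in Yap1 shRNA, against GFP. Tuba4a in Yap1 shRNA against GFP was called in the opposite direction with upper quartile scaling (-0.21, edgeR adjusted p = 0.00236) and with no count filter (-0.15, edgeR adjusted p = 0.029), so no direction is given for it.

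Of 10 other tubulin genes listed, 8 were in the table and 6 were tested, with 1 higher and 1 lower in Yap1 WT and 2 higher and 4 lower in Yap1 shRNA. Beside this and each list below, 32% of all tested genes were called higher and 31.8% lower in Yap1 WT. In Yap1 shRNA these shares were 39.2% and 39.1%. Tubb3, the beta isotype used as a neuronal marker, measured 31.5, 33.5 and 34.0 CPM in GFP, 44.7, 56.2 and 48.5 in Yap1 WT and 127, 143 and 149 in Yap1 shRNA. It rose by 0.59 ± 0.09 and 2.08 ± 0.09 (log2, SE, edgeR adjusted p = 6.55e-05 and 1.96e-10), reaching 130 ± 6.82 TPM against 26.6 ± 0.66 in GFP, with no overlap between groups. Tubb3 belongs to the 9 neural and glial markers, of which 8 were in the table and 3 tested, with 1 and 2 higher. Tubb4a, another beta isotype of neurons, rose by 1.37 ± 0.27 in Yap1 shRNA (edgeR adjusted p = 0.000365) from 1.48 to 3.84 CPM. Tubg1, the gamma-tubulin that seeds microtubules, fell by 0.19 ± 0.06 and 0.62 ± 0.07, and Tube1, the epsilon-tubulin of centrioles, fell by 0.82 ± 0.23 in Yap1 shRNA (edgeR adjusted p = 0.021, 2.47e-06 and 0.00514), with -0.19 in Yap1 WT (edgeR adjusted p = 0.399).

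The genes of the CCT chaperonin, the ring that folds new tubulin and actin, all rose: 8 of 8 in Yap1 WT (log2 changes 0.29 to 0.67, median 0.45) and 8 of 8 in Yap1 shRNA (0.73 to 1.80, median 1.02). All 8 were lower in Yap1 WT than in Yap1 shRNA. Cct4 went from 222 ± 5.84 CPM in GFP to 354 ± 42.4 in Yap1 WT and 772 ± 13.7 in Yap1 shRNA (SD, n = 3). Cct5 went from 289 to 405 and 591 CPM, Cct6a from 123 to 184 and 254, and Cct7 from 266 to 333 and 537 (edgeR adjusted p = 3.37e-05 and 1.25e-08, 2.3e-07 and 3.39e-10, and 0.000297 and 2.95e-09). The downstream cofactors were mixed. Of 14 tested, 2 rose and 6 fell in Yap1 WT (median -0.11) and 4 rose and 8 fell in Yap1 shRNA (median -0.33). Tbce and Tbcel, the tubulin cofactor E and its relative, rose by 0.51 and 0.43 in Yap1 WT and 0.59 and 1.59 in Yap1 shRNA, while Pfdn1, a prefoldin subunit that hands chains to CCT, fell by 0.55 and 1.02. Ttc5, which recognises tubulin as it leaves the ribosome and marks its mRNA for decay when dimers are in excess, fell by 0.51 in Yap1 WT and 1.26 in Yap1 shRNA, from 20.1 ± 0.587 to 14.2 ± 0.408 and 8.39 ± 1.07 CPM (edgeR adjusted p = 0.000254 and 1.39e-07).

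Of 19 tested enzymes that modify tubulin, 1 was higher and 6 lower in Yap1 WT (median -0.14) and 4 were higher and 11 lower in Yap1 shRNA (median -0.36). Vash2, a carboxypeptidase that removes the terminal tyrosine, fell by 0.74 and 0.36 on the log2 scale. Its relative Vash1 had 0.01 in Yap1 WT (edgeR adjusted p = 0.951) and rose by 0.30 in Yap1 shRNA (edgeR adjusted p = 0.00259). Ttl, the ligase that puts the tyrosine back, rose by 0.88 in Yap1 shRNA, from 54.4 ± 2.1 to 100.0 ± 1.69 CPM (edgeR adjusted p = 6.76e-09), and had -0.08 in Yap1 WT (edgeR adjusted p = 0.193). Of the glutamylases, Ttll4 rose by 0.78 and 1.10 and Ttll1 fell by 0.74 and 1.84. The tubulin deacetylase Sirt2 fell by 0.20 and 0.51.

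Proteins that bind or stabilise microtubules went both ways: 6 of 20 rose and 7 fell in Yap1 WT (median 0.01), and 10 rose and 4 fell in Yap1 shRNA (median 0.14). Map2, known from dendrites, rose by 2.22 and 3.89 (log2), from 2.51 ± 0.237 to 11.7 ± 1.74 and 37.2 ± 2.29 CPM (edgeR adjusted p = 3.78e-08 and 5.18e-11). Map7, which recruits kinesin-1, rose by 0.49 and 2.93, and Dclk1, a doublecortin-like kinase, by 0.58 in Yap1 WT, with 0.10 in Yap1 shRNA (edgeR adjusted p = 0.201). The end-binding protein gene Mapre2 fell by 0.86 and 1.54. Among 10 tested stathmins and severing enzymes, 2 rose and 3 fell in Yap1 WT (median -0.43) and 4 rose and 5 fell in Yap1 shRNA (median -0.30). Stmn1, which binds free dimers, fell by 0.46 and 0.83, Katna1, which encodes a severing subunit of katanin, rose by 0.52 in Yap1 WT and 0.52 in Yap1 shRNA, and Fignl1, a fidgetin relative, fell by 2.39 and 3.46. Of the 11 genes of the gamma-tubulin ring complex and its anchors, 2 rose and 3 fell in Yap1 WT (median 0.04) and 2 rose and 7 fell in Yap1 shRNA (median -0.24). Nedd1 rose by 0.55 and 0.41 and Mzt1 by 0.46 in Yap1 shRNA, with 0.05 in Yap1 WT (edgeR adjusted p = 0.609). Tubgcp5 fell by 0.28 and 0.63, Cdk5rap2 by 0.28 and 0.87, and Akap9 by 0.33 and 0.22. These lists had background rates of 63.8% and 78.3% called, and their medians stand beside 0.00 and -0.01 over all genes.

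**Figure D4:**
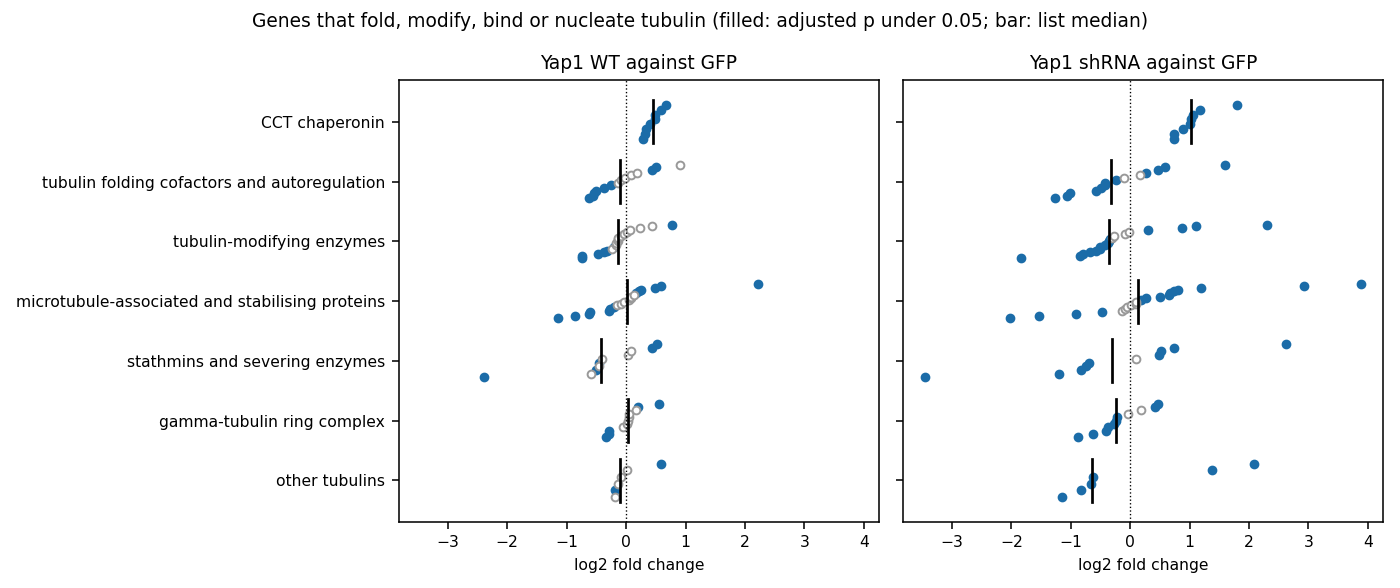
Log2 fold changes (horizontal axis) of tested genes in 7 lists of tubulin partners in Yap1 WT (left) and Yap1 shRNA (right) against GFP; each point is a gene, filled where its adjusted p was under 0.05, and the bar is the list median. All 8 CCT genes lie right of 0 in both panels, while the other lists spread to both sides.

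The genes whose levels ran most like Tuba1b over the 9 libraries, by Pearson's r of log2 CPM, were Ucp2 (0.9961), Mfap4 (0.996) and Acta1 (0.9955), and those most like Tubb5 were Smim26 (0.9941), Slc29a1 (0.9925) and Nab1 (0.992). These values are a description: the 9 libraries fall into 3 groups, which alone give high r for any genes of like group means.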

How the data were processed

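The authors deposited 1 table of expected counts per gene, TPM scaled within each library, and log2 fold changes with p-values and q-values from their own comparisons, per the file headers. A second table repeats these columns and was not used. The submitters' processing notes name HISAT2, Bowtie2, RSEM 1.3.1, DESeq2 1.4.5 and rn6. Per the labels' protocols, mRNA was selected with oligo(dT) and sequenced on a BGISEQ-500; the strand is not given in the sources used here.

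Rounded expected counts of all 9 libraries entered a single edgeR model (version 4.0.16, R 4.3.3) with group as its factor, TMM scaling and filterByExpr. Each comparison used the two-sided quasi-likelihood F test with Benjamini-Hochberg adjustment over 13708 genes at 0.05. The common biological coefficient of variation was 7.18%. An SE is the log2 fold change over the root of F. The script was tested on simulated data. Replicate pairs differed by more than sampling noise (chi-square per degree of freedom 2.34 to 11.4). Tried instead were 3 scalings (RLE, upper quartile, library size), DESeq2 (1.42.0), voom, and limma (3.58.1) on log2 TPM with pseudocounts 1 and 0.1 (genes of mean TPM at least 1, or no filter), no count filter, 5 CPM in 3 libraries, 6 libraries alone, thinning, a replicate block, and each library left out.

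The isotypes and gene lists were chosen with earlier results of these data known. Named are the 10 isotypes, Yap1, up to 3 genes of lowest p per list and comparison with GFP, and the 3 genes most like the leading alpha and beta isotype. The result of 1 gene that this rule names is not reported here. List symbols not matched in the table were Tubal3, Tubb1, Tbcc1 and Rbfox3. Promoter windows came from RefSeq (GRCr8), matched by symbol for 10 of 10 isotypes; the 50 bases after each start were left out.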

Additional observations from a re-analysis of the deposited data

How the results depend on the processing

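Across 22 alternative settings, 608 of 657 isotype values kept their direction and their side of the 0.05 threshold. With the direction kept, 14 lost a call and 14 gained 1, and 21 changed sign. Some of the 21 were called with the new sign: Tubb5 in Yap1 WT and Tuba4a in Yap1 shRNA against GFP, on TPM settings. No value that was called without these alternatives changed sign. Counts of called isotypes and of all called genes stayed within 1.5 times their values in each of these settings. The replicate number gave no pairing (correlations of same-numbered libraries' deviations -0.0313 to 0.0939), and with it as a replicate block 6, 8 and 7 isotypes were called, as without it. The sign changes in Yap1 WT against GFP were those of Tuba1b (0.04 with library size scaling and 0.07 on the 3 TPM settings), Tubb2a (0.04 and 0.07), Tubb5 (0.09 and 0.12) and Tuba4a (-0.009 with no count filter, and from -0.0027 without GFP replicate 1 to 0.07 without GFP replicate 3). In Yap1 shRNA against GFP they were Tubb2a (-0.09 with upper quartile scaling, -0.03 with no count filter) and Tuba4a (0.14 on the 3 TPM settings). Between the virus groups Tubb4b became 0.09 and 0.07 with upper quartile and library size scaling. The log2 ratio of the summed isotypes to GFP, 0.13 and 0.04 in TPM, was -0.04 and -0.18 in TMM-scaled CPM, and that of alpha over beta in Yap1 shRNA went from -0.63 to -0.58. In CPM the share of Tuba1c was 8.4% in GFP and 24.4% in Yap1 shRNA, and that of Tubb6 9.7%, 16.0% and 27.9% in the 3 groups. The cause of these differences was not tested. The stricter count filter left Tuba8, the scarcest isotype, untested.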
